A study of Mus musculus with 4 samples.

Results

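The Gr-1 antibody used to isolate myeloid-derived suppressor cells (MDSCs) binds proteins of the Ly6 family, and 7 genes of that family, chosen by symbol, were followed in MDSCs with and without EGCG: Ly6g, Ly6c1, Ly6c2, Ly6a, Ly6e, Ly6d and Ly6k. They are 7 of the 53465 genes listed in the counts, all 7 had reads, and 6 had enough reads to be tested. None of the 6 differed between the EGCG treatment group and the control group after adjustment over all genes. Ly6g, Ly6c1 and Ly6c2, the genes of the Gr-1 antigens, had log2 fold changes between 0.0058 and 0.12, whose signs turned and which reached up to 0.27 (Ly6c2) and 0.24 (Ly6g) with 1 library left out. Ly6a had fewer reads in both EGCG libraries than in both control libraries and Ly6d had more, and 42.7% of all tested genes likewise had groups that did not overlap.

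MDSCs are immature myeloid cells that build up in tumor-bearing hosts. They were sorted with Gr-1 magnetic beads from the spleens of BALB/c mice carrying tumors of 4T1, a mammary carcinoma line of that strain, and the study's methods give the mice as male and 6 weeks old. After sorting, the cells were kept for 6 h in control medium (control group, 2 libraries) or with EGCG, a green tea catechin, at 5 μg/mL (EGCG treatment group, 2 libraries). Both groups therefore carried the tumor, passed through the same sort and were treated outside the animal, and no library came from cells that the sort left behind or from mice without tumors. The labels do not say whether replicates are separate mice or separate wells, so the P values below measure only the spread between these libraries, which may be technical.

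Ly6 proteins are small proteins of the three-finger fold, held together by disulfide bonds and mostly tied to the outer membrane by a glycosylphosphatidylinositol (GPI) anchor. Ly-6G is the usual surface marker of mouse neutrophils and granulocytic MDSCs, and Ly-6C, encoded by Ly6c1 and Ly6c2, is high on inflammatory monocytes and monocytic MDSCs. The Gr-1 antibody sees Ly-6G strongly and Ly-6C more weakly. Ly6a encodes Sca-1, a marker of hematopoietic stem cells that interferons induce, Ly6e encodes an interferon-responsive protein known for effects on virus entry, Ly6d is a marker of B cell progenitors, and Ly6k is known mainly from the testis.

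All 7 genes lie on chromosome 15 (GRCm38, GENCODE M21 gene limits). In order along the chromosome, Ly6d lies at chr15:74762056-74763620 (minus strand), Ly6k at chr15:74796874-74799986 (minus), Ly6e at chr15:74955051-74959905 (plus), Ly6a at chr15:74994877-74998031 (minus), Ly6c1 at chr15:75044018-75048830 (minus), Ly6c2 at chr15:75108158-75111970 (minus) and Ly6g at chr15:75155240-75159126 (plus). Several are close copies of each other, which bears on how reads are assigned. The first 120 coding bases of Ly6c1, Ly6c2 and Ly6g are shown because these are the genes behind the sort, with capitals where Ly6c2 or Ly6g differs from Ly6c1 (6 and 16 bases).
Ly6c1: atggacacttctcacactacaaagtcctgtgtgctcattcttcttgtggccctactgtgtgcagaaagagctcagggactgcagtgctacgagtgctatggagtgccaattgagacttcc
Ly6c2: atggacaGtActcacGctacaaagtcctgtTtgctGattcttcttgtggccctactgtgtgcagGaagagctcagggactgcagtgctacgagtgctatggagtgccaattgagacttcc
Ly6g: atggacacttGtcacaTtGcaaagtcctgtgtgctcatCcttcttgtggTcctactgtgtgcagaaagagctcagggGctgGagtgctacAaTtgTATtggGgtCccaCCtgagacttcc

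The coding sequences of Ly6c1 and Ly6c2 are 393 bases each and differ at 9 positions (97.7% identity). Counted from 1 at the start of the coding sequence, with the Ly6c1 base first, the differences are C8G, T10A, A16G, G31T, C36G, A65G, G254A, T327C and G376A. The longest stretch without a difference is 188 bases, so a read inside it fits both genes. Ly6g (402 coding bases) is 78.1% identical to Ly6c1, 76.9% to Ly6c2 and 83.1% to Ly6a. Over whole transcripts, 33.0% of the 31-base words of Ly6c1 also occur in Ly6c2, and 21.4% of those of Ly6c2 occur in Ly6c1. Of the words of Ly6a, 21.9% occur in Ly6c1. The share found in any other gene was 46.8% for Ly6c1, 39.0% for Ly6k, 31.9% for Ly6a and 23.8% for Ly6c2. It was 9.55% for Ly6g, 0.422% for Ly6e and 0% for Ly6d. The counts of Ly6c1, Ly6c2 and Ly6a are therefore uncertain to the extent that such reads were split, moved or dropped. Ly6k shares 395 exonic bases with an antisense gene, and since the counting ignored strand the reads of both cannot be told apart there. The reference genome is from C57BL/6J mice and the cells from BALB/c mice, which carry other Ly6 alleles, and the effect of that on the counts was not tested.

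Promoter sequence was given by RefSeq (GRCm38.p6) for 3 of the 7 genes, which are again those behind the sort. The 150 bases before each RefSeq start site are printed 5′ to 3′ on the gene's strand, because the levels of these 3 genes followed one another over the libraries. Capitals mark matches to GAGGAAGT, a form of the site of the myeloid factor PU.1, and to TATAAA, the letters of a TATA box. The last bases of the Ly6g window lie inside the GENCODE limits of the gene.
Ly6g, chr15:75155111-75155260 (plus strand): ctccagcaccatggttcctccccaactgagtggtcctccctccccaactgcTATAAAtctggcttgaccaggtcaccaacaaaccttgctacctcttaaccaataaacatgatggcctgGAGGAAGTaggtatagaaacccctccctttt
Ly6c1, chr15:75048838-75048987 (minus strand): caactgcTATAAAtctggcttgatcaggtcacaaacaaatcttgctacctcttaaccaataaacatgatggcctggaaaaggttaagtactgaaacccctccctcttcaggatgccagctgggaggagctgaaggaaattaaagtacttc
Ly6c2, chr15:75111972-75112121 (minus strand): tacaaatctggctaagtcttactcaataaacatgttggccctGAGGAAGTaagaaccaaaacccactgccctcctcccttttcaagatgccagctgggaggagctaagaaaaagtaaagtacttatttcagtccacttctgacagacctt

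GAGGAAGT was found at -31 to -24 of the Ly6g start and at -108 to -101 of the Ly6c2 start, and it occurs on either strand in 1.69% of 27025 promoters of the same length. TATAAA was found at -99 to -94 for Ly6g and at -143 to -138 for Ly6c1, and occurs in 8.07% of promoters. Both matches lie farther from the listed start than a TATA box usually does. All matches are of letters only, and their use was not tested. Also searched on both strands were GAAANNGAA, the paired GAAA repeats of an interferon response element (4.00% of promoters), TTCNNNGAA, the interferon-gamma activated site (4.14%), and TTGCNNCAA, a C/EBP site (0.929%), where N is any base. None of these 3 letter patterns is in the 3 windows.

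The 4 libraries held 17767318 to 18390385 reads counted on genes, and the CPM values below are counts scaled to a library of 1000000 reads after TMM adjustment. Control replicate 1 lay far from both EGCG libraries, with a mean chi-square per gene of 15.4 and 12.1. Its distance from control replicate 2 was 6.85, within the 6.08 to 6.93 of the pairs without it. Both pairs of replicates differed by more than sampling noise. The 20 neutrophil marker genes together reached 66502 to 87154 CPM and the 16 monocyte marker genes 2912 to 3449 CPM, so markers of both granulocytic and monocytic cells were present. Markers of other cells were also present, with sums of 1880 to 2145 CPM for 12 B cell genes, 112 to 155 CPM for 12 endothelial genes and 72.2 to 86.2 CPM for 9 stem and progenitor genes. In none of these 5 lists was a gene at 0 in every library.

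The members covered a wide span of levels. In CPM per kilobase of exonic length, Ly6g reached 1114 ± 126.5 (SD, n = 4 libraries), 11.95 times the level of the next member, Ly6e (93.2 ± 7.93). Below these came Ly6c2 (50.8 ± 6.01), Ly6c1 (39.4 ± 3.07), Ly6d (12.0 ± 1.91), Ly6a (2.15 ± 0.613) and Ly6k (0.251 ± 0.0665). No pair of neighbours in this order overlapped in its range over the 4 libraries. The closest neighbours were Ly6c2 and Ly6c1, at a ratio of 1.29, and these are the pair that shares most sequence. Along the chromosome the levels went down from Ly6d to Ly6k, up to Ly6e and down to Ly6a, and from there rose through Ly6c1 and Ly6c2 to Ly6g.

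**Figure D1:**
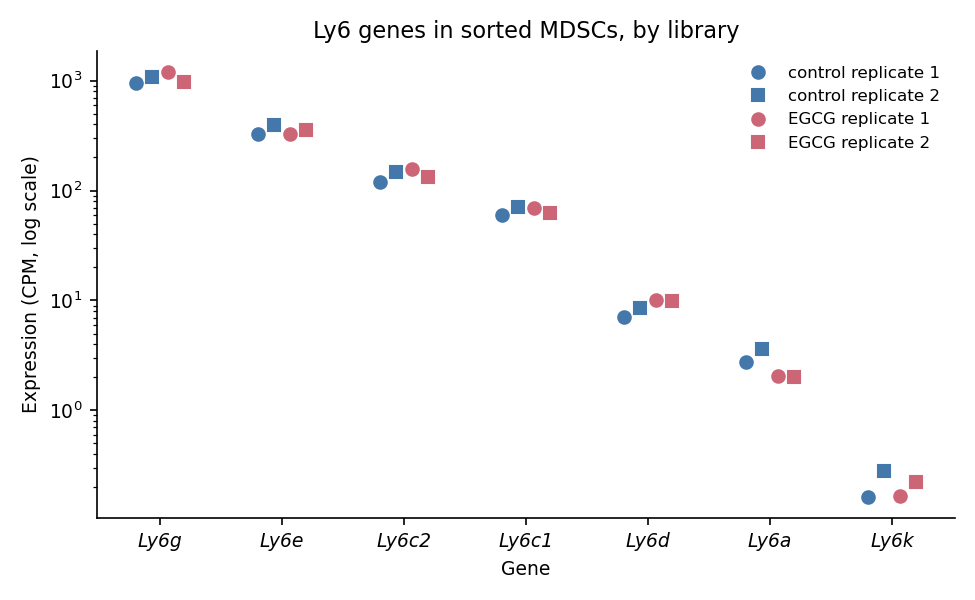
Level of the 7 Ly6 genes in each library, in CPM on a log axis, with control and EGCG libraries in separate colors. Ly6g lies between 943 and 1200 CPM in all 4 libraries and Ly6k between 0.164 and 0.280 CPM, and within each gene the 4 libraries lie close together next to the distance between genes.

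**Figure D2:**
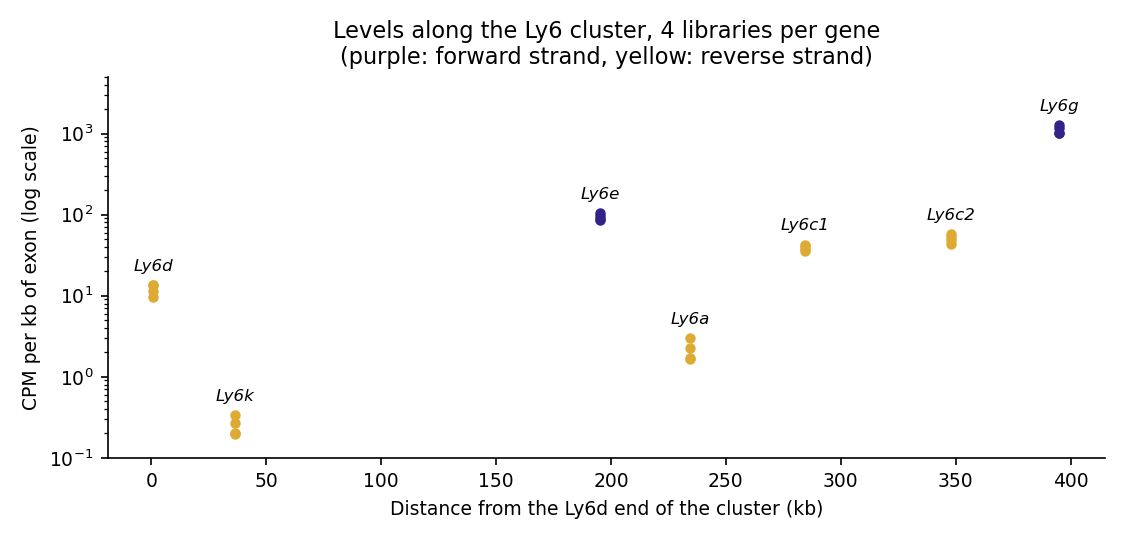
Level of each Ly6 gene in CPM per kilobase on a log axis against its distance from Ly6d along the chromosome in kilobases, 1 point per library. Ly6g at one end of the cluster is the highest, at 1001 to 1274 CPM per kilobase, Ly6k is the lowest, at 0.198 to 0.338, and the levels rise in order from Ly6a to Ly6g.

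The first comparison was whether EGCG changed the genes of the sorted antigens. Ly6g, the neutrophil antigen, was at 943 and 1090 CPM (17223 and 19476 counts) in the control libraries and at 1200 and 965 CPM (21752 and 17236 counts) in the EGCG libraries. The groups overlapped, with the highest level in EGCG replicate 1 and the lowest in control replicate 1. The log2 fold change of EGCG over control was 0.09 ± 0.10 (SE), with a 95% interval of -0.13 to 0.31 and an adjusted p of 0.779 (quasi-likelihood test of edgeR, Benjamini-Hochberg adjustment over 14682 genes, as for each adjusted p below).

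Ly6c1 was at 60.4 and 71.4 CPM in the control libraries and at 69.2 and 63.1 CPM in the EGCG libraries, with group means of 65.9 ± 7.78 and 66.2 ± 4.33 CPM (SD, n = 2). The EGCG values lay between the control values. Its log2 fold change was 0.0058 ± 0.09 (SE), with a 95% interval of -0.20 to 0.21 and an adjusted p of 0.987. Ly6c2 was at 120.3 and 146.9 CPM in the control libraries and at 157.8 and 132.2 CPM in the EGCG libraries. The groups overlapped here too, and the log2 fold change was 0.12 ± 0.10 (SE), with a 95% interval of -0.10 to 0.34 and an adjusted p of 0.691.

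The 3 antigen genes had the same order of libraries in outline. Each was lowest in control replicate 1, and each was higher in control replicate 2 and EGCG replicate 1 than in control replicate 1 and EGCG replicate 2, so the spread between replicates of a group was as large as that between groups. The neutrophil marker sum was likewise lowest in control replicate 1 (66502 CPM) and highest in EGCG replicate 1 (87154 CPM), with 78241 CPM in control replicate 2 and 77759 CPM in EGCG replicate 2. It was carried largely by S100a8 and S100a9. From control to EGCG replicate 1, S100a9 went from 22455 to 31668 CPM and S100a8 from 14461 to 22838 CPM. Of the 20 neutrophil genes 15 were higher, 5 lower and 0 called in edgeR or DESeq2 (0.15% of all tested genes were called in edgeR), with a median of 0.04. With a length correction 7 were higher and 13 lower. S100a8 alone had an unadjusted p under 0.05 (higher). The monocyte marker sum went another way, with 3449 and 3241 CPM for the control replicates against 2912 and 3152 CPM for the EGCG replicates. These sums did not overlap, nor did 42.7% of single genes, and within them Fn1, which encodes fibronectin and is named after its values were seen, was at 490 and 304 CPM against 218 and 263 CPM (adjusted p = 0.0870). Of the 16 monocyte genes 13 were lower and 0 were called in edgeR or DESeq2 (3 at an unadjusted p under 0.05, all lower, against 12.2% of all tested genes). By library size only 1 was called in edgeR, and with 1 library left out 9 to 12 were lower. The part of either list in the levels of Ly6g, Ly6c1 and Ly6c2 was not tested. In bulk RNA, fewer cells of a type and less RNA per cell cannot be told apart.

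**Figure D3:**
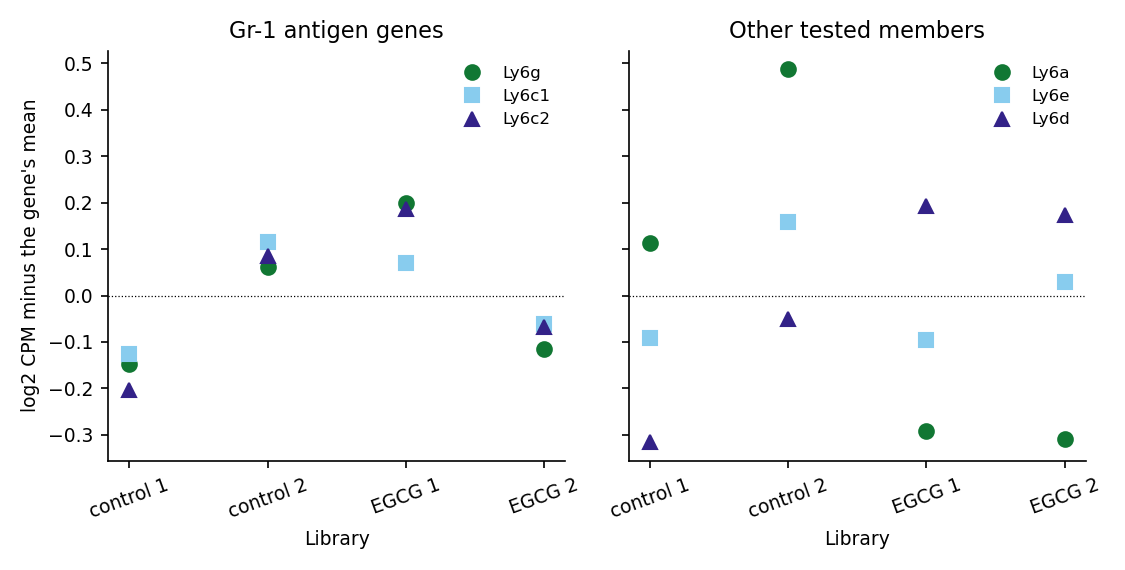
Log2 CPM of the 6 tested Ly6 genes in each library minus the gene's mean over the 4 libraries, with the Gr-1 antigen genes Ly6g, Ly6c1 and Ly6c2 in one panel and Ly6a, Ly6e and Ly6d in the other. The antigen genes move together and reach 0.20 at most above their mean. Ly6a, Ly6e and the antigen gene Ly6c1 peak in control replicate 2, and Ly6d is lowest in control replicate 1 at -0.32.

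The balance of the antigens was measured within each library as the ratio of Ly6g to the sum of Ly6c1 and Ly6c2, which does not depend on library scaling. On counts not corrected for length, the ratio was 5.22 and 4.99 for the control replicates against 5.28 and 4.94 for the EGCG replicates. Both control values lay between the EGCG values, so the groups overlapped, as they did per kilobase of exonic length (12.5 and 12.0 against 12.9 and 11.9). On the log2 scale the control mean was 2.35 ± 0.0456 and the EGCG mean 2.35 ± 0.0685 (SD, n = 2), a difference of 0.0014 (exact two-sided permutation test, p = 1, where 0.333 is the smallest p that 2 against 2 libraries allow). The ratio of Ly6c2 to Ly6c1 was 1.99 and 2.06 for the control replicates against 2.28 and 2.09 for the EGCG replicates.

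The second comparison concerned the interferon-responsive members. Ly6a had 50 and 64 counts (2.74 and 3.58 CPM) in the control libraries and 37 and 36 counts (2.04 and 2.02 CPM) in the EGCG libraries. Both EGCG libraries were below both control libraries, with means of 3.16 ± 0.596 and 2.03 ± 0.0177 CPM (SD, n = 2). The log2 fold change was -0.64 ± 0.26 (SE), or 0.643 times the control level, with a 95% interval of -1.20 to -0.07, an unadjusted p of 0.0299 and an adjusted p of 0.357. Counting error alone was wide at this depth, since the exact 95% Poisson intervals were 37.1 to 65.9 and 49.3 to 81.7 counts in the control libraries and 26.1 to 51.0 and 25.2 to 49.8 counts in the EGCG libraries. These intervals cover counting error only, and those of both control libraries overlap both EGCG intervals. Such overlap is not a test of a difference, and whether counting error alone could give this one was not tested.

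Ly6e, at 330 and 393 CPM in the control libraries and 329 and 359 CPM in the EGCG libraries, had far more reads behind it (5965 to 7019 counts). The groups overlapped, and the log2 fold change was -0.07 ± 0.09 (SE), with a 95% interval of -0.26 to 0.12 and an adjusted p of 0.80. Like Ly6a and the antigen gene Ly6c1, Ly6e was highest in control replicate 2.

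Of a list of 38 interferon-stimulated genes, 2 fell past the threshold and all 38 had a negative log2 fold change, with a median of -0.33 against 0.0031 over all tested genes. The 2 were Oas2 (-0.48 ± 0.08 SE, adjusted p = 0.0390) and Oasl2 (-0.57 ± 0.10 SE, adjusted p = 0.0420), enzymes of the 2-5A antiviral system and their relatives, and 20 of the 38 had an unadjusted p under 0.05, all lower. Over all tested genes, 0.15% passed the threshold, 12.2% had an unadjusted p under 0.05 and 49.4% had a negative log2 fold change. The summed level of the list was 2460 and 3357 CPM in the control libraries and 2163 and 2492 CPM in the EGCG libraries. It was highest in control replicate 2, as were Ly6a, Ly6e and the antigen gene Ly6c1. The share of all genes that peaked in that library was not counted. Without that library 27 of the 38 were lower and 11 higher, with a median of -0.05, and Ly6a stood at -0.43. With 1 library left out the median ran from -0.53 (without control replicate 1) to -0.05. In edgeR, 5 genes of the list were called by library size only, and 0 by upper quartile scaling, without the low-count filter, or with the replicate block and a length correction together. The list was written with earlier results of these data known.

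Sca-1 is also a marker of endothelial and of stem and progenitor cells. BALB/c mice carry other Ly6 alleles than C57BL/6J mice, and whether Sca-1 marks these cells alike in BALB/c mice was not tested. All 11 tested endothelial genes were lower in the EGCG libraries and 0 were called in edgeR or DESeq2 (0.15% of all tested genes were called in edgeR), with 7 at an unadjusted p under 0.05 (12.2% of all tested genes were) and a median of -0.56. Without EGCG replicate 1 that median was -0.32, and without EGCG replicate 2 it was -0.93. By library size only, 1 of the 11 was called in edgeR, where 135 lower and 16 higher genes were called over all tested genes. Their summed level was 146 and 155 CPM in the control libraries and 112 and 122 CPM in the EGCG libraries, and these sums did not overlap (nor did 42.7% of single genes). Each of the 11 remained lower with any 1 library left out. Pecam1, an adhesion protein of endothelium that leukocytes also carry, was the most abundant at 96.8 CPM (log2 fold change -0.26 ± 0.08 SE, adjusted p = 0.224). It was the largest part of the endothelial sums, at 100 and 111 CPM in the control libraries against 87.3 and 89.0 CPM in the EGCG libraries. Kdr, a VEGF receptor, was at 5.33 CPM (-0.75 ± 0.23 SE, adjusted p = 0.223). Of 7 tested stem and progenitor genes, 6 were lower and 0 were called in edgeR or DESeq2 (1 at an unadjusted p under 0.05, lower), with summed levels of 82.3 and 86.2 CPM in the control libraries and 72.2 and 78.3 CPM in the EGCG libraries. The transcription factor gene Gata2 was the largest part of these sums, at 46.2 and 49.5 CPM against 42.2 and 44.6 CPM. Without control replicate 2, 4 of the 7 were lower and 3 higher, and without control replicate 1 or EGCG replicate 1, 5 of 8 tested were lower. The part of either list in the level of Ly6a was not tested.

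The third comparison was of Ly6d and Ly6k, which mark cells outside the myeloid lineage. Ly6d had 129 and 152 counts (7.06 and 8.51 CPM) in the control libraries and 183 and 178 counts (10.1 and 9.97 CPM) in the EGCG libraries. Both EGCG libraries were above both control libraries, with means of 7.79 ± 1.02 and 10.03 ± 0.0899 CPM (SD, n = 2). The log2 fold change was 0.37 ± 0.16 (SE), or 1.29 times the control level, with a 95% interval of 0.03 to 0.70, an unadjusted p of 0.0345 and an adjusted p of 0.374. Of 12 B cell genes, 11 were higher in the EGCG libraries and 0 were called in edgeR or DESeq2 (1 at an unadjusted p under 0.05, higher, where 12.2% of all tested genes were at that p and 0.15% were called), with a median of 0.14 and summed levels of 1880 and 1979 CPM in the control libraries and 2092 and 2145 CPM in the EGCG libraries. Ighm, the heavy chain of IgM, was at 1404 and 1480 CPM against 1551 and 1642 CPM (log2 fold change 0.15 ± 0.08 SE, adjusted p = 0.491). Plasmacytoid dendritic cells can carry Ly-6D too, and of their 12 marker genes 6 were higher and 6 lower, with a median of -0.0031 and sums of 288 and 356 CPM for the control replicates against 274 and 303 CPM for the EGCG replicates. Irf7 was the largest part of these sums, at 152 and 207 CPM against 130 and 158 CPM, and Irf7 and Bst2 are also in the interferon-stimulated list. With a length correction 7 of the 12 were higher and 5 lower, with a median of 0.13. Of 7 tested plasma cell genes 3 were higher and 4 lower, with a median of -0.15. In both lists 0 were called in edgeR or DESeq2, and 1 gene in each direction had an unadjusted p under 0.05. The part of these cells in the level of Ly6d was not tested.

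Ly6k had 3 and 5 counts in the control libraries and 3 and 4 counts in the EGCG libraries. It was not tested, because it did not reach the minimum count, and with exact 95% Poisson intervals from 0.619 to 8.77 counts for the lowest libraries to 1.62 to 11.7 counts for control replicate 2 no difference was detectable at this depth. Reads of the overlapping antisense gene cannot be told apart from its own.

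Of the 6 tested members, 0 passed an adjusted p of 0.05 in edgeR, where 22 of 14682 genes (0.15%) did, 20 lower and 2 higher. DESeq2 called 0 members as well and gave no adjusted p for Ly6a and Ly6d. At an unadjusted p under 0.05 there were 2 members, Ly6a and Ly6d, against 12.2% of all tested genes. The groups did not overlap for the same 2 of 6 members, against 42.7% of all tested genes. In sign, 4 members were higher and 2 lower, and the median log2 fold change was 0.05 against 0.0031 over all tested genes. This tally rested on single libraries, since it became 1 higher and 5 lower without control replicate 1 (median -0.06) or without EGCG replicate 1 (median -0.04), and 5 higher and 1 lower without control replicate 2 (median 0.17). Without EGCG replicate 2 it was 4 higher and 2 lower, with a median of 0.16. The standard errors ran from 0.09 for Ly6e and Ly6c1 to 0.26 for Ly6a.

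**Figure D4:**
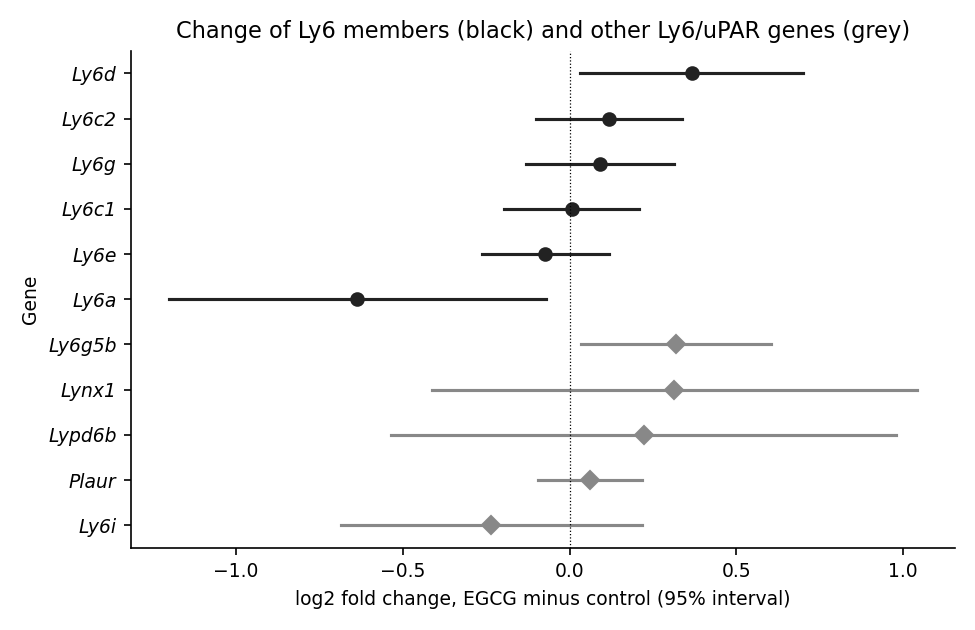
Log2 fold change of EGCG over control with its 95% interval, in black for the 6 tested Ly6 genes and in grey for the 5 other tested genes of the Ly6/uPAR domain family. The intervals of Ly6a (-1.20 to -0.07) and Ly6d (0.03 to 0.70) leave out 0, before adjustment over genes, and those of Ly6g, Ly6c1, Ly6c2 and Ly6e span it.

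Other genes with the Ly6/uPAR domain were then counted. Of 31 with a row in the counts, 14 were at 0 in every library and 5 had enough reads for the test, of which 4 were higher, 1 was lower and 0 were called in edgeR or DESeq2 (0.15% of all tested genes were called in edgeR), with 1 at an unadjusted p under 0.05 (12.2% of all tested genes). That gene was Ly6g5b, which lies outside the Ly6 cluster of chromosome 15 and despite its name is a gene distinct from Ly6g, with 12.3 and 13.4 CPM in the control libraries and 14.6 and 17.6 CPM in the EGCG libraries (log2 fold change 0.32 ± 0.13 SE, adjusted p = 0.359). Plaur, the urokinase receptor of myeloid cells, was the most abundant of them at 359 to 383 CPM (0.06 ± 0.07 SE, adjusted p = 0.794). Ly6i, which lies beside Ly6a in the cluster (chr15:74979534-74983430, minus strand) and whose coding sequence is 86.3% identical to it, had 111 and 178 counts in the control libraries and 121 and 124 counts in the EGCG libraries (-0.23 ± 0.21 SE, adjusted p = 0.705). Like Ly6a, Ly6e and Ly6c1, it was highest in control replicate 2. Without the low-count filter 17 of the 31 genes were tested, with 7 higher, 10 lower and a median of -0.31. The genes added there had few reads.

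Since most Ly6 proteins need a GPI anchor to stay on the surface, the genes that build and attach it were counted as well. Of 28 tested, 12 were higher, 16 were lower and 0 were called in edgeR, with 0 at an unadjusted p under 0.05 and a median of -0.03. Over all tested genes 0.15% were called, 12.2% were at that p and 49.4% were lower. DESeq2 also called 0 of them. Pigb, a mannosyltransferase of anchor synthesis, had the smallest p (-0.18 ± 0.10 SE, adjusted p = 0.514).

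**Figure D5:**
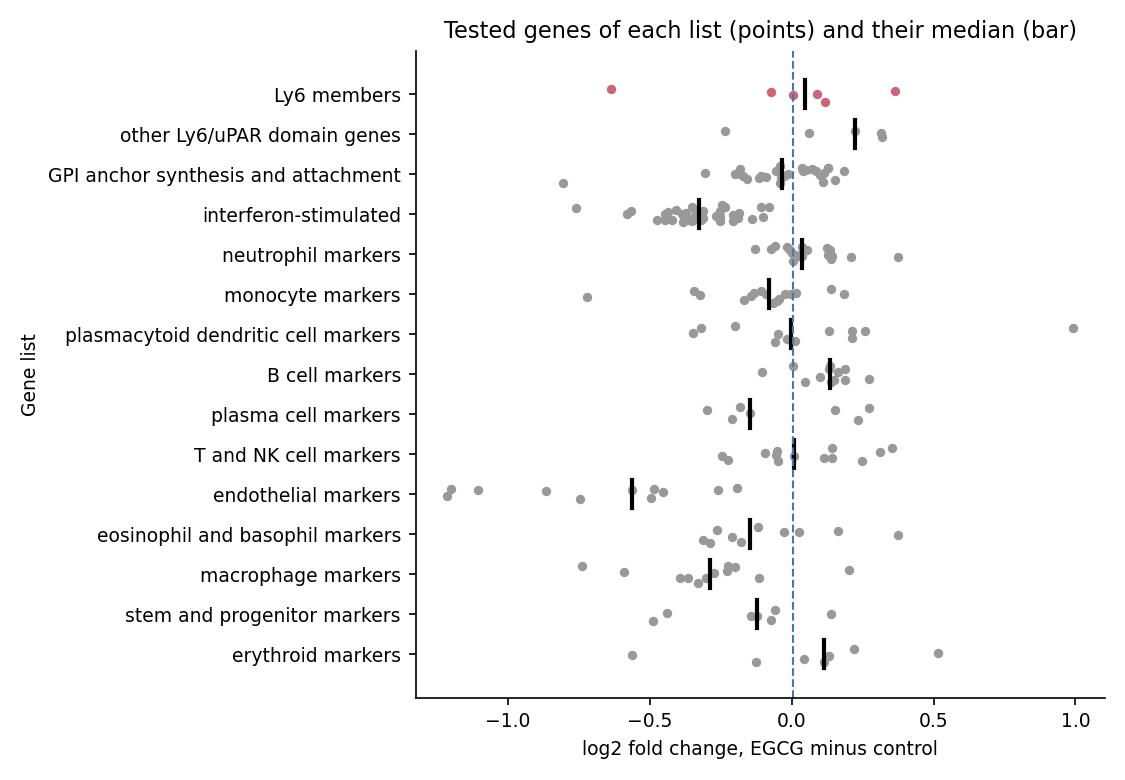
Log2 fold change of EGCG over control for each tested gene of the Ly6 members, the related gene lists and the cell marker lists, with a bar at each median and a dashed line at the median of all tested genes (0.0031). The 38 interferon-stimulated genes and the 11 endothelial genes all lie below 0, and the 6 Ly6 members lie on both sides of it.

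The genes whose pattern over the 4 libraries was nearest to each member were found by the distance between centred log2 CPM values, among 8210 tested genes with at least 10 CPM on average. For Ly6g they were Adprm (distance 0.0195) and Pclaf (0.0318), for Ly6c1 Arap2 (0.0137) and Ap3m1 (0.0244), and for Ly6c2 Scp2-ps2 (0.0167) and Smim15 (0.0195). Nearest to Ly6e were Tpx2 (0.0289) and Lpp (0.0309), and nearest to Ly6d were Snrpb2 (0.0396) and Tpt1 (0.0458). Ly6a lay farther from its nearest genes, which were Oasl2 (0.0876), one of the 2 called interferon-stimulated genes, and Igfbp7 (0.100), a secreted protein high in endothelium. Ly6a also varied more over the libraries, at a distance of 0.656 from a flat profile against 0.195 (Ly6c1) to 0.412 (Ly6d) for the other members. With 4 libraries and this many genes such close patterns are common, and the distances are given as a description.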

How the data were processed

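RNA was sequenced from Gr-1-sorted splenic MDSCs in 2 control and 2 EGCG libraries. Per the submitters' processing notes, reads were handled with bcl2fastq 1.8.4, FastQC, STAR 2.6.0c and featureCounts 1.6.2 on GRCm38. The deposited values were whole-number counts per gene, without normalization and without regard to strand. There were 0 columns of other samples.

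From these counts, genes that passed edgeR's filterByExpr (minimum count of 10) were tested for EGCG against control in edgeR 4.0.16 under R 4.3.3 (TMM factors, quasi-likelihood test, legacy form). Benjamini-Hochberg adjustment covered 14682 genes, with a threshold of 0.05. The standard error was the absolute log2 fold change divided by the root of F. The script was tested on simulated data. Levels between genes used GENCODE M21 exonic lengths. Coding sequences were aligned with Biopython 1.88, and log2 CPM for patterns had a prior count of 2. DESeq2 1.42.0 was an alternative test. Figures came from matplotlib 3.10.9, and tables from pandas 2.3.3 and NumPy 2.4.6 in Python 3.11.15.

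The genes named were the 7 members, called genes of the other Ly6/uPAR, GPI anchor and interferon lists or else up to 3 of each with the smallest p, the most abundant markers of each cell list (up to 3), and the 2 genes nearest to each member. Not all are printed, and Fn1, Plaur, Bst2, Fcer1a, Cpa3 and Mcpt8 are named outside this rule, after their values were seen. Members and lists were chosen with earlier results of these data known. Alternatives were other filters, scalings and tests, a length correction, a replicate block and leaving out each library. The tumor day differs between labels and methods and is not given. Protein sequences were not used here.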

Additional observations from a re-analysis of the deposited data

How the results depend on the processing

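The count of called members was 0 under every alternative run. Ly6a stayed lower (-0.69 to -0.63, and -0.81 to -0.43 with 1 library left out) and Ly6d higher (0.28 to 0.37, and 0.24 to 0.51), neither ever past the threshold. The near-zero members changed sign. Ly6g ran from -0.07 to 0.24 with 1 library left out, being -0.0049 without control replicate 1 and -0.0726 without EGCG replicate 1. Ly6c1 was -0.0278 by library size only, -0.0361 with the length correction, -0.0339 with that and the replicate block, and -0.11 to 0.13 with 1 library left out, negative without control replicate 1 or EGCG replicate 1. Ly6c2 ran from -0.0138 to 0.27 and Ly6e from -0.19 to 0.0599 with 1 library left out, the sign changing for Ly6c2 without control replicate 1 or EGCG replicate 1 (-0.0125) and for Ly6e without control replicate 2. Summing the reads of Ly6c1 and Ly6c2, an alternative chosen after seeing the data, gave 0.08. Scaling moved the median of all genes by under 0.1.

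Over all genes, the 20 lower calls became 0 without the low-count filter, 135 by library size only, 9 by upper quartile, 49 by the robust test, 50 by DESeq2, 5 with the length correction and 3 with the replicate block and that correction. The 2 higher calls became 0 without the filter, 1 with the stricter filter, 16 by library size only, 6 by the newer test, 14 by the robust test, 14 by DESeq2 and 6 with the replicate block. Leaving out 1 library gave 72 to 235 lower and 5 to 119 higher calls. The cause was not tested. With 1 library left out, the spread within groups came from the other group alone. Calls of the marker and interferon lists in those fits are therefore not given. Same-numbered libraries shared only a number (correlation of deviations 0.03), and with the replicate block alone 24 genes were lower. Depth limits Ly6a and Ly6k most.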

Other observations

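Markers of eosinophils and of tissue macrophages, which the Gr-1 sort was not aimed at, were also in these libraries. Prg2, the major basic protein of eosinophil granules, was at 865 and 747 CPM in the control libraries and at 738 and 607 CPM in the EGCG libraries (log2 fold change -0.26 ± 0.10 SE, adjusted p = 0.320 in edgeR's quasi-likelihood test). Epx, the eosinophil peroxidase, was at 150 and 124 CPM against 112 and 108 CPM (-0.31 ± 0.09 SE, adjusted p = 0.196). Of 10 tested genes of eosinophils and basophils, 3 were higher, 7 were lower and 0 were called in edgeR or DESeq2 (0.15% of all tested genes were called in edgeR), with 1 higher and 3 lower at an unadjusted p under 0.05 (12.2% of all tested genes). The 3 higher genes were Fcer1a (0.37), Cpa3 (0.16) and Prss34 (0.02), which basophils express, and Mcpt8, another basophil gene, was at -0.03. The eosinophil genes of the list were all lower. Over both cell types together the median log2 fold change was -0.15. With 1 library left out it ran from -0.24 (EGCG replicate 1 left out) to -0.06 (EGCG replicate 2 left out).

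Slc40a1, the iron exporter ferroportin, was at 562 and 625 CPM in the control libraries and at 668 and 696 CPM in the EGCG libraries (0.20 ± 0.08 SE, adjusted p = 0.339). Adgre1, which encodes the macrophage antigen F4/80, was at 196 and 228 CPM against 181 and 170 CPM (-0.27 ± 0.08 SE, adjusted p = 0.228). Slc40a1 was the 1 gene of 12 tested macrophage genes that was higher, 11 were lower and 0 were called in edgeR, with 1 higher and 6 lower at an unadjusted p under 0.05, against the same shares of all tested genes. DESeq2 called 1 of the macrophage genes. By library size only, edgeR called 1. With 1 library left out, the median ran from -0.52 (EGCG replicate 2 left out) to -0.08 (EGCG replicate 1 left out).

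Of 13 tested genes of T and NK cells, 7 were higher and 6 lower, and of 7 tested erythroid genes 5 were higher and 2 lower. In both lists 0 were called in edgeR or DESeq2, with 1 lower T and NK cell gene and 1 erythroid gene in each direction at an unadjusted p under 0.05. Over all tested genes, 0.15% were called in edgeR and 12.2% were at that p. With 1 library left out the T and NK cell tally ran from 6 to 10 higher and the erythroid tally from 3 to 6 higher.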
